A study of Mus musculus with 12 samples.

Results

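The proteasome subunit genes were followed in hearts of mice given a compound labelled DMA or its vehicle. A gene was taken when its array feature (probe) carried a single gene symbol made of Psma, Psmb, Psmc, Psmd, Psme or Psmf and a digit, and the brightest probe stood for the gene. This gave 50 of 36227 probes and 44 of the 18069 genes with a single symbol. Among them, Psmc3ip, a meiotic recombination factor, and Psme3ip1, a binding partner of Psme3, share the letters of the name but are not subunits, and they were kept apart from the other 42. Psmb10, the remaining immune catalytic subunit, was represented by a probe that also carries the symbol of another gene, so it has no value here, and the activator gene Psme4 was not analysed here.

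The 26S proteasome is the protease that degrades ubiquitin-tagged proteins in the cytosol and nucleus. Its subunits stand in fixed ratios. The 20S core is a barrel of alpha rings, which gate the channel, around beta rings, which carry the catalytic subunits Psmb5, Psmb6 and Psmb7. In immune cells, and in other cells under interferon, these are replaced by Psmb8, Psmb9 and Psmb10, which form the immunoproteasome that trims peptides for display on MHC class I. The 19S cap binds and unfolds substrates with a ring of ATPases (Psmc genes) and a set of non-ATPase subunits (Psmd genes), the 11S activators (Psme1 to Psme3) open the core in place of the cap, and Psmf1 inhibits it. In the heart the proteasome turns over sarcomere and signalling proteins.

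Hearts came from Balb/c mice, an inbred laboratory strain, dosed by gavage. The 4 groups were DMA at 30 mg/kg body weight with hearts taken after 24 h, DMSO vehicle after 24 h, DMA at the same dose after 48 h, and DMSO after 48 h, with 3 arrays in each. The labels do not expand the abbreviation DMA and give neither age nor sex. The labels call the arrays biological replicates while the design text describes RNA isolated as a pool. The spread between the 3 arrays of a group may therefore be technical, and the p-values rest on this spread pooled over the 4 groups. All values are log2 intensities of 1-colour arrays, with background correction and normalization not given in the sources used here. The quartiles were equal within a time and differed between the times, so DMA was compared with DMSO only within a time. A probe's brightness also depends on its sequence, so a level describes that probe and genes are not ranked by abundance.

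Over all probes, each array was correlated with the median array of its own time made without it. DMA 24 h replicate 3 had r = 0.742, and r lay between 0.927 and 0.963 for the remaining 11. Where leaving it out turned the sign of a 24 h difference or median, or moved it by more than 1.5 times, the value without it is also given. DMA 48 h replicate 3 held a trend along the numbering of the probes, whose smoothed departure from the median array of 48 h reached between -1.03 and 0.40. The same measure lay between 0.033 and 0.60 on DMA 24 h replicate 3, and between -0.15 and 0.19 on the remaining arrays. Of the 504 values of the 42 genes 15 were missing, 9 of these on the DMSO replicate 1 arrays, so that 28 genes had a value on all 12 arrays, 13 lacked 1 and 1 lacked 2. Differences were fitted with limma on all 12 arrays and adjusted by Benjamini-Hochberg over 35401 probes. The tissue label was checked against cardiomyocyte markers: Ttn, the giant sarcomere protein, had a mean of 14.09 in the DMA 24 h group and 14.05 in the DMSO 24 h group, and Tnnc1, cardiac troponin C, had 10.87 and 12.55. Myh7, a myosin heavy chain, had 8.31 and 8.82, and the probes of Myh6, the main myosin heavy chain of the adult mouse heart, and Ryr2, the calcium release channel, were dim, with 5.74 and 5.25 for Myh6 and 6.28 and 5.73 for Ryr2. Of the 16 listed markers 15 had a probe and 5 could be tested, since 10 had too few values, with none on any array for Actc1 and Atp2a2. Of the 10, Tnni3, Myl2, Pln, Fabp3 and Mb had a value on DMA 24 h replicate 3 alone, between 13.25 and 13.73.

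The RefSeq promoters of Psmb5, Psmb8 and Psmb9 are shown because they stand for the constitutive and the immune subunits, which are known to answer to different transcription factors. Each is the 250 bases before the annotated start on its own strand in GRCm38.p6. In lower case with matches in capitals, they hold the core of the antioxidant response element at position -47 of Psmb5, a gamma-interferon activated site at position -97 of Psmb8, and no match in Psmb9. Psmb5 lies at chr14:54617996-54618245 on the minus strand, Psmb8 at chr17:34197945-34198194 on the plus strand and Psmb9 at chr17:34187331-34187580 on the minus strand.
Psmb5: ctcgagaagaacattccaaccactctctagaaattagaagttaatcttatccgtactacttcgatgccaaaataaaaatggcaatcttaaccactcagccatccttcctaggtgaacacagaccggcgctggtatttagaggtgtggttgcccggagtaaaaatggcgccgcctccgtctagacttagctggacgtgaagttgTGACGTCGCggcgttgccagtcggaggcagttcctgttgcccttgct
Psmb8: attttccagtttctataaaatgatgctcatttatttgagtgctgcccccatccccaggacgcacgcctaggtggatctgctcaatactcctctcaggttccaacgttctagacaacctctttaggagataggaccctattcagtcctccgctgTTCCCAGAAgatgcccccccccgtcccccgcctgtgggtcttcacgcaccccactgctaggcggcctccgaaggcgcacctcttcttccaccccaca
Psmb9: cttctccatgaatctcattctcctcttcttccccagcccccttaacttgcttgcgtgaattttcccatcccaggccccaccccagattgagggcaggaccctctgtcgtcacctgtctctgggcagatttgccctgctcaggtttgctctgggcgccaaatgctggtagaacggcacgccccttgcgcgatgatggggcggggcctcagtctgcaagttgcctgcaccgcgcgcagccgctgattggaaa
The motifs were searched on both strands and could overlap. The antioxidant element core, TGACNNNGC, which Nfe2l2 and related factors are known to bind, was in 10.161% of the 32851 RefSeq promoters. It was in 5 of the 38 member promoters, those of 5 of the 35 member genes with a promoter entry (Psmb5, Psmb6, Psmc6, Psmd9 and Psmd12). The window of Psmb6 runs into the gene's own span in RefSeq and is not printed. The gamma-interferon activated site, TTCNNNGAA, was in 7.02% of all promoters and in 1 of the 38 member promoters (Psmb8). The interferon-stimulated element in the form GAAANNGAAA was in 2.977% of all promoters and in 3 of the 38 member promoters (Psmb3, Psmd4 and Psmd9). A match describes letters and is not a site, and the absence of a match holds for these letters in this window only.

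The 42 genes were mostly bright in all groups. The mean over arrays was above 10 for 33 of them, among them Psmd1, a scaffold subunit of the 19S cap, at 13.66. It lay between 7 and 10 for 6: Psmd5, Psmd9 and Psmd10, which act as chaperones in the assembly of the 19S base, the cap subunits Psmd2 and Psmd13, and the immune subunit Psmb9. It was below 7 for the 3 others: Psma8, the alpha subunit of the testis, at 6.30, Psmb11, the beta subunit of the thymic cortex, at 4.63, and Psmf1 at 4.63.

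**Figure D1:**
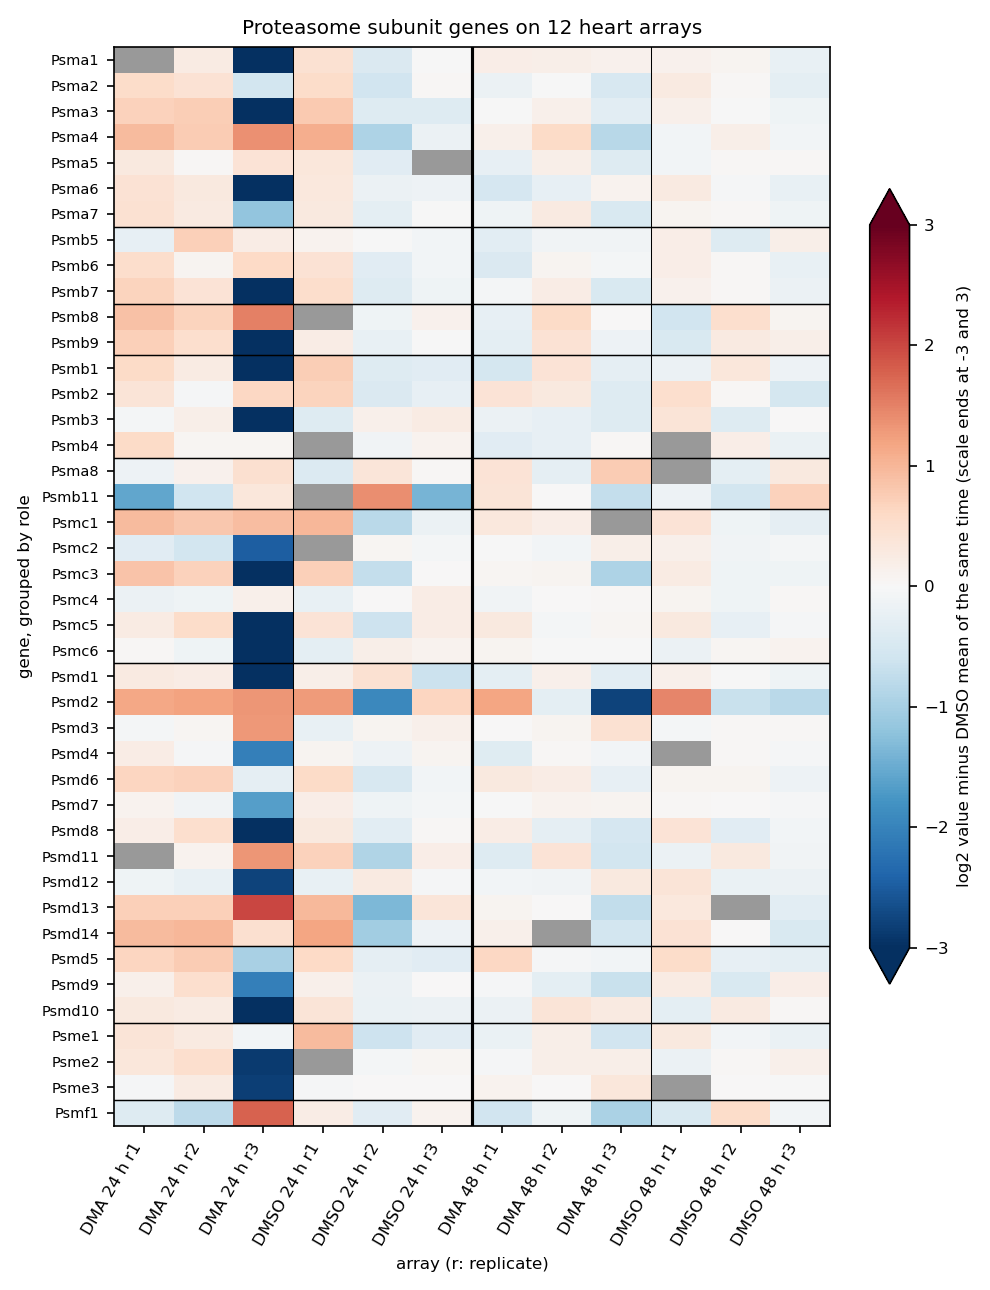
Each row is a subunit gene and each column an array, and the colour is the log2 value minus the DMSO mean of the same time, with grey for a missing value and colours ending at -3 and 3. The DMA 24 h replicate 3 column holds the darkest cells, both below and above the DMSO mean, and the 48 h columns are paler.

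DMA was set against DMSO at 24 h first, to see which subunit genes differ a day after dosing. No subunit gene passed the test, nor did any of the 35401 probes (0% called by limma's adjusted p at a threshold of 0.05). The fitted DMA minus DMSO differences of the 42 genes had 19 positive and 23 negative signs, a median of -0.31 and a range of -2.55 to 1.23, beside a median of 0.086 over all genes. Without DMA 24 h replicate 3 the signs were 34 positive and 8 negative, the median was 0.32 and the range -1.08 to 1.18, beside a median of 0.0028 over all genes. So the sign of the median turned on 1 array, and no probe was called without it either (0%). Leaving out DMSO 24 h replicate 2 as well, a choice made after seeing the data, gave a median of 0.19. The adjusted p of every member was 0.871 or more with all arrays, and without DMA 24 h replicate 3 each rounded to 1.

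By the unadjusted p under 0.05, Psmb8 alone of the 42 differed at 24 h, where 3.03% of all probes did (1071). Of the 2852 genes with a mean above 10, 43 did. With the replicate number as a block, 3 members did, Psmb8 (unadjusted p = 0.0306), Psmc2 (unadjusted p = 0.0298) and Psmd11 (unadjusted p = 0.0315), beside 4.82% of all probes, and their limma adjusted p was 0.676. Without DMA 24 h replicate 3 no member did, against 3.18% of all probes (1124) and 36 of the 2852 genes above 10. Groups that did not overlap were as rare: with all arrays 1 gene, Psmb8, was higher on every DMA array than on every DMSO array, where 4.43% of all genes were, and 1, Psmc2, was lower, where 3.3% were. Both genes lack a value on DMSO 24 h replicate 1, so their DMSO side is replicates 2 and 3 only. Groups with fewer values part more easily. Without DMA 24 h replicate 3, 5 genes (11.9%) were higher (Psmb8, Psmb9, Psmd5, Psmd6 and Psme2), beside 9.43% of all genes, and 2 (4.76%) were lower (Psmc2 and Psmf1), beside 8.63%. The first share was close to that of all genes and the second below it.

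None of the catalytic subunits of the constitutive core passed the test, and the values of Psmb5, Psmb6 and Psmb7 overlapped between the groups. Psmb5, the chymotrypsin-like subunit, had 12.83, 13.79 and 13.31 on DMA 24 h arrays, against 13.18, 13.07 and 12.99 on DMSO 24 h arrays. The groups overlapped and the difference was 0.23 (SE 0.340, limma adjusted p = 0.896). Psmb6, the caspase-like subunit, had 13.24, 12.79 and 13.29 on DMA 24 h arrays, against 13.12, 12.36 and 12.61 on DMSO 24 h arrays. Here DMA replicates 1 and 3 were above all DMSO arrays and replicate 2 was not, with a difference of 0.41 (SE 0.335), or 0.24 without DMSO 24 h replicate 2. Between arrays of equal number the Psmb6 differences were 0.11, 0.43 and 0.68, all positive, and with the replicate block its unadjusted p was 0.236. Psmb7, the trypsin-like subunit, had 12.72, 12.47 and 8.77 on DMA 24 h arrays, against 12.58, 11.68 and 11.92 on DMSO 24 h arrays. Its value on DMA replicate 3 was far below all the others, and the difference of -0.74 (SE 0.832) became 0.53 (SE 0.333) without that array.

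Both immune subunits with a value were higher on DMA 24 h replicates 1 and 2 than on every DMSO array, and they parted on replicate 3. Psmb8, which replaces Psmb5, had 10.40, 10.19 and 11.03 on DMA 24 h arrays, against 9.38 and 9.64 on DMSO 24 h replicates 2 and 3, with replicate 1 missing. The lowest DMA value was above the higher of the 2 DMSO values. Group means were 10.54 ± 0.437 in the DMA 24 h group (SD, n = 3) and 9.51 ± 0.180 in the DMSO 24 h group (SD, n = 2). The difference was 1.03 (SE 0.456, limma unadjusted p = 0.0471, adjusted p = 0.871), and it was 0.78 (SE 0.418, unadjusted p = 0.0951) without DMA 24 h replicate 3. Psmb8 thus did not pass the adjusted test, and its DMSO side rests on 2 arrays.

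Psmb9, which replaces Psmb6, had 9.85, 9.64 and 4.68 on DMA 24 h arrays, against 9.35, 8.91 and 9.13 on DMSO 24 h arrays. The first pair of DMA values was above all DMSO values and that of replicate 3 was the lowest of the 12 arrays. The difference was -1.07 (SE 1.06) with that array and 0.62 (SE 0.328, unadjusted p = 0.0899) without it. In RefSeq, Psmb8 and Psmb9 lie on chromosome 17 with only Tap1, a subunit of the peptide transporter for MHC class I, between them. On DMA 24 h replicate 3 they lay 0.74 above and 5.07 below the mean of the other DMA 24 h arrays.

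**Figure D2:**
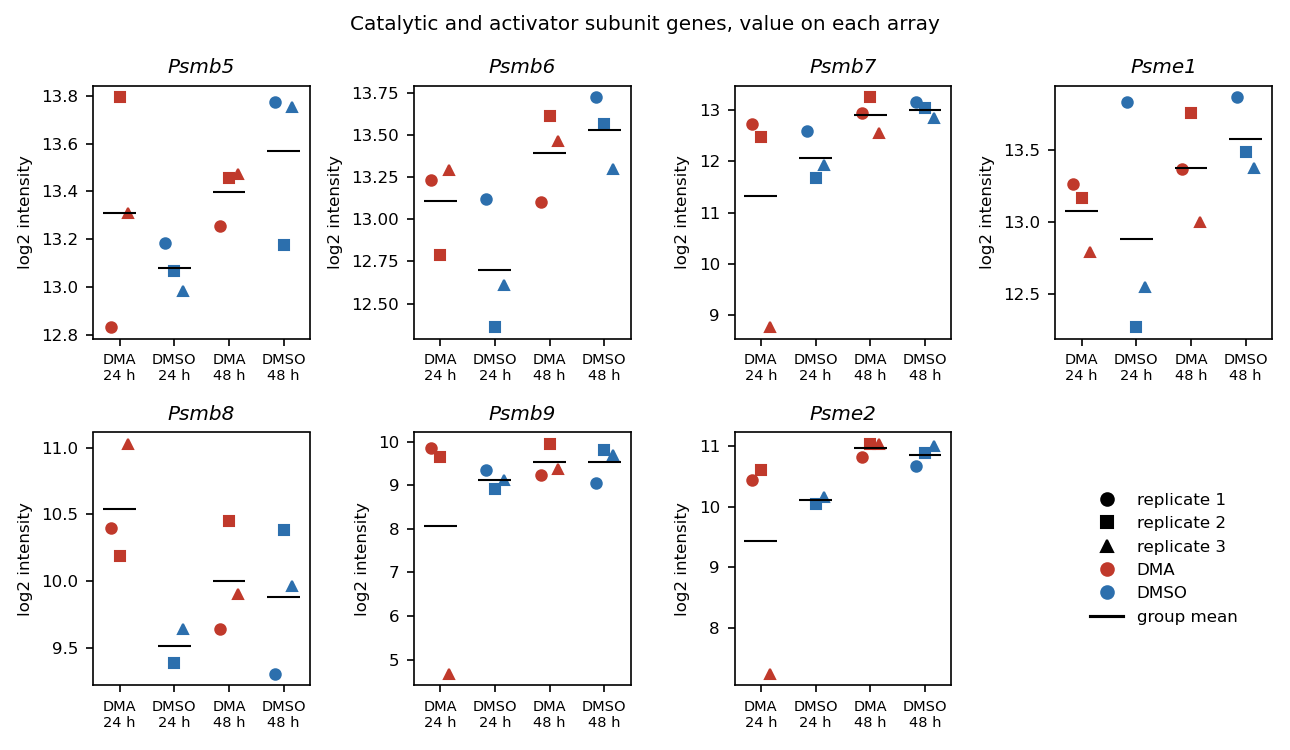
Points are log2 intensities on single arrays of Psmb5, Psmb6, Psmb7 and Psme1 (upper row) and Psmb8, Psmb9 and Psme2 (lower row), by group, with the group mean as a line and a scale of its own in each panel. DMA 24 h replicate 3 (triangle) is far below the others for Psmb7, Psmb9 and Psme2, at 8.77, 4.68 and 7.24, and is the highest point of Psmb8 at 11.03.

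The immune subunits were then set against the constitutive ones as differences, since levels of different probes cannot be compared. The median DMA minus DMSO difference of Psmb8 and Psmb9 less that of Psmb5, Psmb6 and Psmb7 was -0.25 at 24 h with all arrays, 0.39 without DMA 24 h replicate 3, and 0.35 with DMSO 24 h replicate 2 also left out. Per array, the same contrast, as means of deviations from the DMSO mean, was 0.49, 0.19 and -0.64 on DMA 24 h arrays and -0.13, 0.069 and 0.17 on DMSO 24 h arrays, where the value of DMSO replicate 1 rests on Psmb9 alone because Psmb8 is missing there. DMA replicates 1 and 2 were above all DMSO arrays and replicate 3 below all of them. The pooled SD between arrays of a group was 0.448 over all arrays and 0.370 without DMA 24 h replicate 3, and the contrast was not tested. With no array left out the 2 genes also differed in sign, which their median hides.

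Genes that work with the immunoproteasome were read beside it. Of 9 tested genes of MHC class I presentation 6 had positive differences at 24 h (median 0.33) and in 3 every DMA value present was above every DMSO value, beside 4.43% of all genes. These were H2-K1, a class I heavy chain, with 0.85 (SE 0.539), or 0.45 without DMA 24 h replicate 2, H2-D1, another heavy chain, and Calr, a chaperone of class I folding, with 0.46 (SE 0.330). H2-K1 and H2-D1 had only 2 values in each group, and the H2-K1 probe was dim, with group means of 5.04 after DMA and 4.19 after DMSO. Without DMA 24 h replicate 3, 8 of the 9 were positive (median 0.48) and 6 did not overlap, all higher, beside 9.43% of all genes. Among these 6, H2-D1, at 0.79 (SE 1.30) with all arrays, was left with a single DMA value and differed by 0.36. Groups with so few values part more easily, so the share of all genes is not a like comparison for H2-D1 and H2-K1. Of 17 tested interferon response genes 9 were positive (median 0.29), and in 3 (Igtp, Stat2 and Irf1, the last with 2 DMA values) every DMA value present was above every DMSO value, beside 4.43% of all genes. Igtp, an interferon-induced GTPase, differed by 1.98 (SE 0.657, unadjusted p = 0.0116, adjusted p = 0.871) and Stat2, a signal transducer of type I interferon, by 1.23 (SE 0.624). Without DMA 24 h replicate 3, 15 of the 17 were positive (median 0.58) and 8 did not overlap, all higher, beside 9.43% of all genes. None of these genes passed the adjusted test in either fit.

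Leukocytes carry the immunoproteasome constitutively, so their markers are given beside it. Of 24 leukocyte markers 19 were tested. At 24 h, 12 had positive differences (median 0.34), and without DMA 24 h replicate 3, 15 did (median 0.67). The 2 of smallest p were Cd3e, a chain of the T cell receptor complex, with 1.69 (SE 0.594, unadjusted p = 0.0157), or 0.88 without DMSO 24 h replicate 2, and Nkg7, a granule protein of cytotoxic cells, with 0.79. The Cd3e probe was dim, with group means of 4.30 after DMA and 2.61 after DMSO, both below the lower quartile of DMA 24 h replicate 1 at 4.75, and Cd3g, of the same complex, had -0.69 with all arrays and 0.072 without DMA 24 h replicate 3. The log2 values of 11 markers with all values summed to 65.35 to 72.8 on DMA 24 h arrays and to 62.13 to 70.86 on DMSO 24 h arrays, so the groups overlapped. In whole hearts fewer cells of a type and less RNA per cell cannot be told apart, and the part of leukocytes in the Psmb8 and Psmb9 values was not tested.

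Among the remaining core subunits none passed the test. Of the 7 alpha ring genes, 3 had positive and 4 negative differences at 24 h (median -0.15), and all 7 were positive without DMA 24 h replicate 3, between 0.16 and 0.86 (median 0.36). None had groups that did not overlap in either fit. Psma1 had 11.63 and 7.17 on DMA 24 h replicates 2 and 3, with replicate 1 missing, against 11.83, 10.95 and 11.36 on DMSO 24 h arrays. The replicate 2 value lay among the DMSO values and that of replicate 3 far below them, and the difference of -1.98 (SE 0.971, unadjusted p = 0.0675) became 0.25 without replicate 3. Psma4 had 10.61, 10.41 and 11.01 on DMA 24 h arrays, against 10.75, 8.73 and 9.47 on DMSO 24 h arrays. Its DMA values were close together and DMSO replicates 2 and 3 were low, and the difference was 1.03 (SE 0.520), or 0.57 without DMSO 24 h replicate 2. Of the structural beta subunits Psmb1 to Psmb4, 2 were positive and 2 negative (median -0.67), and all 4 were positive without that array (median 0.25).

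The 6 ATPases of the 19S base, which unfold substrates and thread them into the core, had 1 positive and 5 negative differences at 24 h (median -0.99), and 3 of each sign without DMA 24 h replicate 3 (median 0.18). Psmc2 had 12.60, 12.39 and 10.47 on DMA 24 h arrays, against 12.99 and 12.89 on DMSO 24 h replicates 2 and 3, with replicate 1 missing. All DMA values were below both DMSO values, and the difference was -1.12 (SE 0.573, unadjusted p = 0.0784), or -0.44 (SE 0.266) without replicate 3. Psmc1 had 10.31, 10.17 and 10.29 on DMA 24 h arrays, against 10.35, 8.55 and 9.17 on DMSO 24 h arrays. The DMA arrays were alike and the DMSO arrays were not, and the difference was 0.90 (SE 0.452), or 0.88 without replicate 3 and 0.48 with DMSO 24 h replicate 2 also left out.

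The 11 non-ATPase subunits of the cap, which include the scaffold Psmd2, the deubiquitinase Psmd14 and the ubiquitin receptor Psmd4, had 6 positive and 5 negative differences at 24 h (median 0.35), and 9 positive without DMA 24 h replicate 3 (median 0.25). Psmd2 had 9.18, 9.22 and 9.34 on DMA 24 h arrays, against 9.31, 6.08 and 8.68 on DMSO 24 h arrays. DMSO replicate 2 was far below the rest, and the difference of 1.23 (SE 1.04) became 0.21 with that array and DMA 24 h replicate 3 left out. The same DMSO array was the lowest of its group for Psmd13 (7.48) and Psmd14 (8.68). The 3 assembly chaperones Psmd5, Psmd9 and Psmd10 had a median of -0.47, and all 3 were positive without DMA 24 h replicate 3 (median 0.32). Psmd5 was then higher on both DMA arrays, 8.23 and 8.34, against 8.19, 7.30 and 7.25 on DMSO 24 h arrays, and the difference was 0.71 (SE 0.403).

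Among the activators, Psme1 and Psme2, which form a mixed ring that interferon is known to induce, had unlike patterns. Psme1 had 13.26, 13.16 and 12.79 on DMA 24 h arrays, against 13.84, 12.27 and 12.54 on DMSO 24 h arrays. The DMA values lay within the range of the DMSO values, with a difference of 0.19 (SE 0.433), or 0.33 without DMA 24 h replicate 3. Psme2 had 10.45, 10.60 and 7.24 on DMA 24 h arrays, against 10.05 and 10.16 on DMSO 24 h replicates 2 and 3, with replicate 1 missing. The difference was -0.68 (SE 0.831) with all arrays and 0.42 (SE 0.268) without DMA 24 h replicate 3, where both DMA values were above both DMSO values. Psme3, which forms an activator ring of its own in the nucleus, had -0.86, and 0.11 without that array. The inhibitor gene Psmf1 had 4.19, 3.80 and 6.34 on DMA 24 h arrays, against 4.80, 4.24 and 4.68 on DMSO 24 h arrays. Replicate 3 was the highest of the 6 and the other DMA arrays the lowest, so the difference was 0.20 (SE 0.595) with it and -0.58 (SE 0.374) without it.

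**Figure D3:**
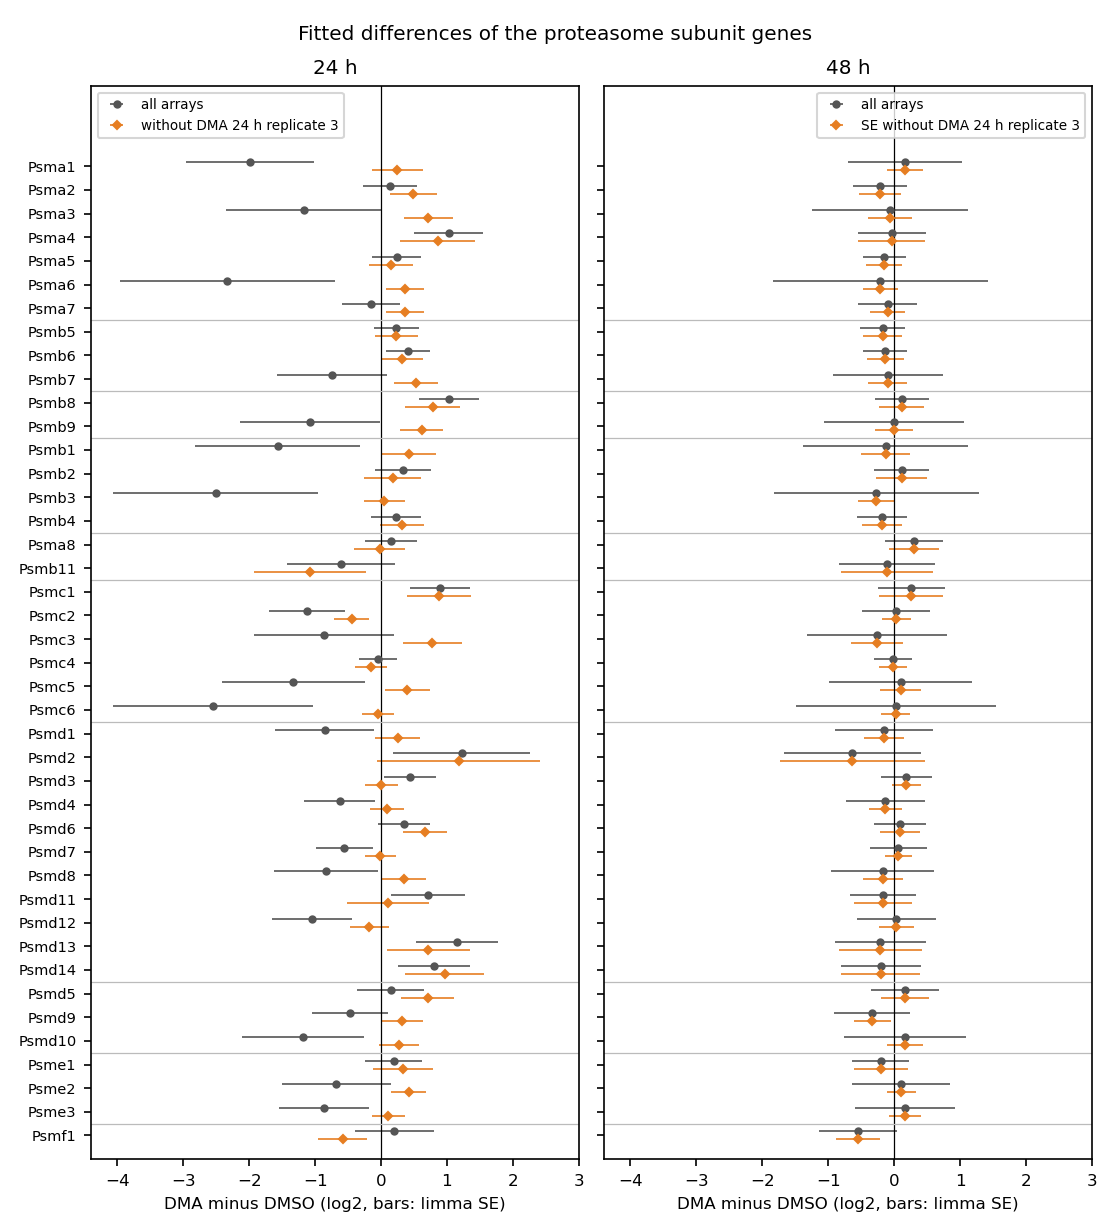
Points are fitted DMA minus DMSO differences in log2 units with limma standard errors, at 24 h (left) and 48 h (right), with all arrays (circles) and without DMA 24 h replicate 3 (diamonds; at 48 h this alters the standard error only). At 24 h the circles spread between -2.55 and 1.23 and most diamonds lie above 0, and at 48 h all points lie between -0.63 and 0.30.

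DMA 24 h replicate 3 did not shift the subunit genes by a common amount. Against the mean of the other DMA 24 h arrays, 14 of the 42 genes lay within 1 log2 unit, 5 lay more than 1 above, 9 between 1 and 3 below, and 14 (33.3%) more than 3 below. The median was -1.60, and the lowest value was -8.07 for Psma6, an alpha ring gene. Among all 2829 genes with a mean above 10 and a value there, 23.2% lay more than 3 below and the median was -0.11. Of the 33 members above 10, 12 lay more than 3 below. On that array 50% of the members were more than 1 below the DMSO 24 h mean, against 36.7% of the 2852 genes above 10 and 26.4% of all genes. The share was thus higher among the members than among other bright genes, and this difference was not tested.

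Within a class the same array pulled subunits apart. In the alpha ring 3 of 7 genes lay more than 3 below the other DMA 24 h arrays and 2 lay within 1, and Psma4 was 0.50 above. Of the ATPases 3 of 6 lay more than 3 below, and Psmc1 and Psmc4 lay within 1. Of the 11 non-ATPases 3 lay more than 1 above, among them Psmd3 at 1.30, and 2 more than 3 below. RefSeq neighbours also differed: Psme1 and Psme2 on chromosome 14, with 1 coding gene between them, lay 0.42 and 3.28 below. Psmb4 had a pair of bright probes, with 13.11 and 6.27 on this array, against 13.65 and 13.12 at the brighter and 11.96 and 11.71 at the dimmer probe on DMA 24 h replicates 1 and 2. Probes for the same gene thus disagreed there by several log2 units.

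**Figure D4:**
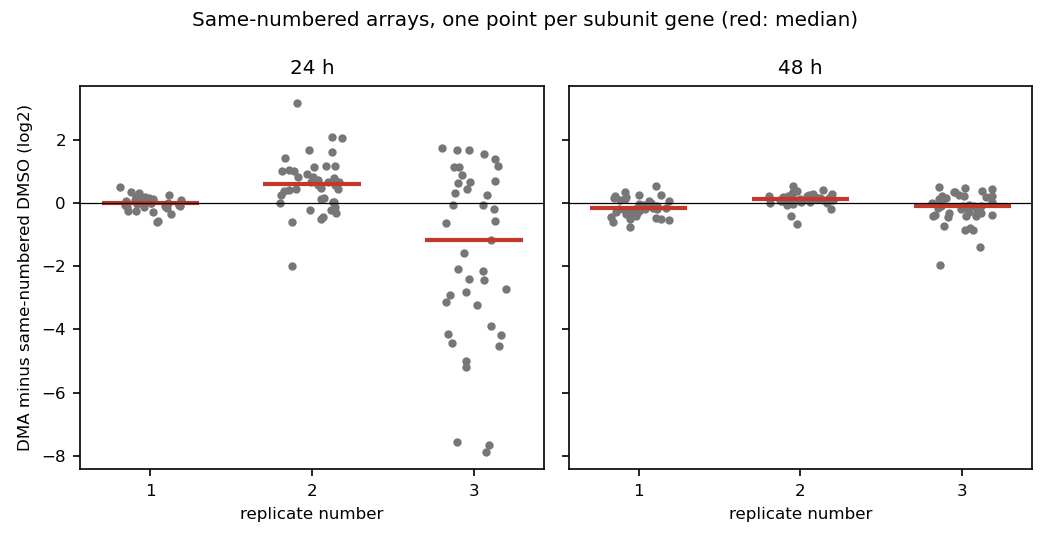
Each point is a subunit gene, placed at its DMA value minus the DMSO value of the same replicate number (log2), at 24 h (left) and 48 h (right), with the median in red and points spread sideways for sight only. The 24 h medians are -0.0046, 0.60 and -1.19 for replicates 1 to 3, and the 48 h medians are -0.18, 0.13 and -0.12.

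Replicate by replicate the direction at 24 h was not steady. Same-numbered DMA and DMSO arrays gave 17 positive and 18 negative differences for replicate 1 (median -0.0046), 33 positive and 9 negative for replicate 2 (median 0.60), and 15 positive and 26 negative for replicate 3 (median -1.19). The median deviation of the 42 genes from the DMSO mean was 0.36, 0.26 and -1.08 on DMA 24 h arrays and 0.38, -0.29 and -0.0018 on DMSO 24 h arrays. DMSO replicate 1 was thus as high as the first DMA array, and the groups overlapped. The median SD of a member within its group was 0.963 in the DMA 24 h group and 0.385 in the DMSO 24 h group, against 0.741 and 0.270 for all genes above 10.

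At 48 h the subunit genes differed little between DMA and DMSO. No member and no probe passed the test (0% called), and 0 of the 42 had an unadjusted p under 0.05, where 1.4% of all probes did (494). Of the 2852 genes with a mean above 10, 0 did. The fit pools the spread of DMA 24 h replicate 3 into the 48 h errors: Psmb7 had an SE of 0.832 with that array and 0.298 without it. A small p was thus hard to reach for genes that this array displaced. These counts therefore do not show that the subunits were like other bright genes. With the replicate block 0 members had an unadjusted p under 0.05 as well, beside 2.13% of all probes. Without DMA 24 h replicate 3 the smallest limma unadjusted p of a member at 48 h was 0.133 (Psmf1), and 794 of all probes were under 0.05. Signs were 16 positive and 26 negative, with a median of -0.099 and a range of -0.63 to 0.30, beside a median of 0.0100 over all genes. Without DMA 48 h replicate 3 they were 25 positive and 17 negative with a median of 0.053. Psme3 was the 1 gene higher on every DMA array, where 3.93% of all genes were, and 0 were lower, where 2.32% were. It too lacks a DMSO value, that of DMSO 48 h replicate 1. The median deviation of the 42 genes from the DMSO mean was -0.039, 0.083 and -0.25 on DMA 48 h arrays and 0.15, 0.015 and -0.10 on DMSO 48 h arrays, and the groups overlapped. The median within-group SD of single members was 0.296 after DMA and 0.263 after DMSO.

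The catalytic subunits overlapped at 48 h. Psmb5 had 13.26, 13.46 and 13.47 on DMA 48 h arrays, against 13.77, 13.18 and 13.75 on DMSO 48 h arrays, a difference of -0.17 (SE 0.340), or -0.069 without DMSO 48 h replicate 1. Psmb6 had 13.10, 13.61 and 13.47 on DMA 48 h arrays, against 13.72, 13.57 and 13.30 on DMSO 48 h arrays, a difference of -0.14 (SE 0.335). Psmb7 had 12.94, 13.24 and 12.54 on DMA 48 h arrays, against 13.15, 13.03 and 12.84 on DMSO 48 h arrays, a difference of -0.098 (SE 0.832). All 3 were below 0 by less than their errors.

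The immune subunits overlapped between the groups at 48 h. Psmb8 had 9.64, 10.45 and 9.90 on DMA 48 h arrays, against 9.30, 10.38 and 9.96 on DMSO 48 h arrays, a difference of 0.12 (SE 0.408). Psmb9 had 9.24, 9.94 and 9.38 on DMA 48 h arrays, against 9.06, 9.80 and 9.70 on DMSO 48 h arrays, a difference of -0.0012 (SE 1.06). Replicate 1 was the lowest and replicate 2 the highest array for both genes in both groups. The immune minus constitutive contrast was 0.19, and it ranged between -0.16 and 0.37 as each array was left out. Per array it was 0.0040, 0.43 and 0.14 after DMA and -0.70, 0.50 and 0.20 after DMSO, and the DMA values lay within the range of the DMSO values.

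Psme1 had 13.37, 13.76 and 13.00 on DMA 48 h arrays, against 13.87, 13.49 and 13.37 on DMSO 48 h arrays. Psme2 had 10.82, 11.03 and 11.04 on DMA 48 h arrays, against 10.67, 10.89 and 11.003 on DMSO 48 h arrays. The difference of Psme1 was -0.20 (SE 0.433), or -0.013 without DMA 48 h replicate 3, and that of Psme2 0.11 (SE 0.743), or 0.016 without DMSO 48 h replicate 1. The groups overlapped for both. Psme3 had 11.07, 10.98 and 11.31 on DMA 48 h arrays, against 10.97 and 10.95 on DMSO 48 h replicates 2 and 3, with replicate 1 missing. The nearest values of the groups almost met, and the difference was 0.16 (SE 0.756).

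The 4 members of smallest p at 48 h outside these were all far from the threshold. Psmf1 had 4.30, 4.74 and 3.92 on DMA 48 h arrays, against 4.41, 5.42 and 4.78 on DMSO 48 h arrays, a difference of -0.55 (SE 0.595, unadjusted p = 0.375), or -0.28 without DMSO 48 h replicate 2. Psma8 had 6.61, 5.95 and 6.96 on DMA 48 h arrays, against 5.92 and 6.49 on DMSO 48 h replicates 2 and 3, with replicate 1 missing, a difference of 0.30 (SE 0.441), or 0.017 without DMSO 48 h replicate 2. Both are dim probes with overlapping groups. Psmd9 had 9.14, 8.90 and 8.51 on DMA 48 h arrays, against 9.43, 8.74 and 9.38 on DMSO 48 h arrays, a difference of -0.33 (SE 0.576), or -0.16 without DMA 48 h replicate 3. Psmd2 had 11.44, 9.97 and 7.48 on DMA 48 h arrays, against 11.73, 9.61 and 9.46 on DMSO 48 h arrays. Its value on DMA replicate 3 was the lowest of the 6, and the difference of -0.63 (SE 1.04) became 0.44 without DMA 48 h replicate 3. Those standard errors at 48 h include the spread of DMA 24 h replicate 3, because the fit pools it over groups; without that array the error of Psmb9 at 48 h was 0.294.

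Whether the DMA effect differed between the times was asked by the interaction. No probe was called (0%), and 0 members had an unadjusted p under 0.05, where 1.96% of all probes did (695). The smallest unadjusted p among the members was 0.13 for Psma1, which had 2.14 (SE 1.30) as its 48 h minus 24 h effect. Psmb8 had -0.91 (SE 0.612) and Psmb9 1.07 (SE 1.502). These were, without DMA 24 h replicate 3, -0.084 for Psma1, -0.67 for Psmb8 and -0.62 for Psmb9.

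Genes that build the proteasome or feed it were counted beside the subunits, and none passed the adjusted test at either time. The 5 assembly factors of the 20S core had 3 positive and 2 negative differences at 24 h (median 0.063) and the same counts at 48 h (median 0.018). All 5 were positive at 24 h without DMA 24 h replicate 3 (median 0.096). The 2 of smallest p at 24 h were Psmg3 with 0.50 (SE 0.480), or 0.036 without that array, and Psmg2 with -1.18 (SE 1.20), or 0.71 without it, and those at 48 h were Pomp with 0.10 and Psmg1 with -0.085. Of the ubiquitin genes and activating enzymes 2 of 8 were tested: Uba3, of the NEDD8 pathway, with 0.87 (SE 0.571) at 24 h, or 0.40 without DMSO 24 h replicate 2, and 0.16 at 48 h, and Uba6, an activating enzyme for ubiquitin, with 0.038 and 0.21, and -0.38 at 24 h without DMA 24 h replicate 3. Of 12 ubiquitin receptors and deubiquitinases of the proteasome 8 were tested, 4 positive at 24 h (median 0.096) and 5 at 48 h (median 0.065). Ubqln2, a shuttle for ubiquitinated proteins, was higher on every DMA 24 h array, with group means of 4.91 after DMA and 2.86 after DMSO, a difference of 2.05 (SE 0.814, unadjusted p = 0.028). It is a dim probe, and the difference was 0.34 at 48 h. Uchl5, a deubiquitinase of the cap, had -1.83 (SE 1.02) at 24 h, or -0.25 without DMA 24 h replicate 3, and Ubqln4 had -0.49 at 48 h.

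Of 8 genes of the segregase VCP, which extracts tagged proteins before degradation, 7 were tested, 1 positive and 6 negative at 24 h (median -0.82), 4 positive and 3 negative at 24 h without DMA 24 h replicate 3 (median 0.025), and 4 positive at 48 h (median 0.016). The excess of negative signs at 24 h thus rested on that array. Faf2, a membrane cofactor with 2 DMSO 24 h values, was lower on every DMA 24 h array, with -1.83 (SE 1.02), or -0.55 without DMA 24 h replicate 3. Nploc4 had 0.57 (SE 0.372) at 24 h, or 0.19 without that array. Faf1 had 0.28 and Ube4b -0.41 at 48 h, or -0.17 for Ube4b without DMSO 48 h replicate 1. Of the 4 genes that control proteasome transcription 3 were tested. Nfe2l2, the factor that binds antioxidant response elements, had 1.09 (SE 0.558, unadjusted p = 0.0817) at 24 h, or 0.70 without DMSO 24 h replicate 2, and -0.25 at 48 h. Ngly1, which activates Nfe2l1, had -1.20 (SE 0.974) at 24 h, or 0.092 without DMA 24 h replicate 3, and Nfe2l1, known to drive subunit genes when the proteasome is inhibited, had -0.28 at 48 h.

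At 48 h 4 of 9 MHC class I genes were positive (median -0.0029), and 7 were without DMA 48 h replicate 3 (median 0.11). The 2 of smallest p were Nlrc5 at 0.22, or 0.042 without DMSO 48 h replicate 1, and Tap2 at -0.21. Of 17 interferon genes 9 were positive (median 0.12), and 15 were without DMA 48 h replicate 3 (median 0.33). The 2 of smallest p, Irf1 at -0.53 and Irf8 at -0.59, had the opposite sign to the list median. Without DMA 48 h replicate 3 they were at 0.13 and -0.44. Of the 19 leukocyte markers 9 were positive (median -0.0085), and 15 were without DMA 48 h replicate 3 (median 0.25). The 2 of smallest p were Cd8a at -1.66, or -0.34 without DMA 48 h replicate 1, and Adgre1 at 0.46, or 0.23 without DMSO 48 h replicate 2. The Cd8a probe was dim, with 48 h group means of 2.43 after DMA and 4.09 after DMSO.

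Markers of the other cell types of the heart are given beside the subunits for the same reason as those of leukocytes. Of 12 endothelial markers 11 were tested. All 11 had negative differences at 48 h (median -0.37), with Flt1 at -1.64 (SE 1.29) and Kdr at -0.58 (SE 0.558), both receptors of vascular growth factors, and 7 were negative without DMA 48 h replicate 3 (median -0.12), where Kdr was at -0.26. The Flt1 probe was dim, with 48 h group means of 3.18 after DMA and 4.82 after DMSO, the latter from 2 values. At 24 h 4 of the 11 markers were positive (median -0.12) and without DMA 24 h replicate 3, 9 were (median 0.78), with Tek at 1.63 and Kdr at 1.05 in the fit with all arrays and at 0.57 and 0.61 without DMSO 24 h replicate 2. The log2 values of 7 endothelial markers summed to 51.47 to 70.42 on DMA 24 h arrays and to 58.52 to 71.01 on DMSO 24 h arrays, with DMA replicate 3 and DMSO replicate 2 lowest, the arrays that were also lowest for the subunits. Of 8 fibroblast markers all were tested, with 5 positive at 24 h (median 0.12, or 0.35 without DMA 24 h replicate 3), among them Lum at 1.31 and Col1a1 at 1.36, or 0.67 without that array. The largest differences of the list were those of Col3a1 at -2.34 and Dcn at -2.07, which were 0.033 and 0.74 without that array. At 48 h 5 were positive (median 0.15), with Tcf21 at 0.31 and Col1a2 at -0.70. Of the 5 cardiomyocyte markers 3 were positive at 24 h (median 0.042), with Tnnc1 at -1.68 and Ryr2 at 0.55. There were 4 positive without DMA 24 h replicate 3 (median 0.72), with Tnnc1 at 0.72 and Ryr2 at -0.081. At 48 h 2 were positive (median -0.0016), and 3 were without DMA 48 h replicate 3 (median 0.35). Ryr2 was at 0.43 and Myh6 at -0.40, or 0.59 for Myh6 without that array. The brighter Tnnc1 was at -0.48, or -0.25 without that array. With 2 DMSO values, it was lower on every DMA 48 h array, as 2.32% of all genes were. None passed the adjusted test, and the part of these cells in the subunit values was not tested.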

How the data were processed

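Gene expression was measured in 12 mouse heart samples. Only a deposited table of log2 intensities was used, with 36227 probes; the authors' background correction and normalization are not given in the sources used here. RNA was amplified to biotinylated cRNA and stained with streptavidin-Cy5, per the labels' protocols. The number of arrays limits the precision.

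Probes with at least 2 values in each group (35401, leaving out 826) entered a single linear model with a term per group (lmFit, then eBayes; limma 3.58.1, R 4.3.3), fitted to all 12 arrays. Benjamini-Hochberg adjustment ran over all probes fitted, at a threshold of 0.05. Missing values were not filled. The platform annotation gave 1 symbol for 21615 probes, several for 681 and none for 13931. The brightest probe stood for a gene, which gave 17679 tested genes. All 44 genes of the rule were found by gene identifier in RefSeq GRCm38.p6, with 0 changed symbols. That table served for names and neighbours and its promoter table for sequences.

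The members and lists were chosen with earlier results of these data known. Named in full were Psmb5 to Psmb9, Psme1, Psme2, the 4 other members of smallest unadjusted p at each time, and the 2 genes of smallest p at each time from each list. Further genes were named after their values were seen, where a count was 5 or fewer or a value was extreme.

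The fit was tested on simulated data over 35401 probes. Of probes given a change of 1 log2 unit at 24 h it found 0%, of 2 units 14%, of 3 units 44% and of 4 units 54%, with 6 other probes called. The shares for 48 h were 0%, 16%, 42% and 64%, with 4 other probes called. The simulated noise of a probe had the same SD on every array. It did not copy an array that stands apart as DMA 24 h replicate 3 does, so the shares hold only for such even noise.

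Replicates are numbered 1 to 3 in every group. Deviations of same-numbered DMA and DMSO arrays from their group means correlated at 0.105 to 0.19 at 24 h and 0.276 to 0.335 at 48 h, and those of other numbers at -0.0981 to -0.0118 and -0.208 to -0.0926. Deviations from a group mean cancel within the group, so positive correlations at equal numbers force those of other numbers to be negative on average. As each pair of equal number exceeded 0.1, the numbers were treated as a pairing in an alternative fit with a replicate block. The main fit did not use this pairing, which comes from the data and not from the labels. Alternatives covered filters, array weights, a replicate block, normalization, the trend along probe numbers, the mean of a gene's probes and each array left out. Plots used matplotlib 3.10.9 in Python 3.11.15.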

Additional observations from a re-analysis of the deposited data

How the results depend on the processing

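No subunit gene was called at either time with all arrays or under any alternative that kept all 12 arrays. As each array was left out, the count of called probes ranged between 0 and 14 at 24 h, 0 and 1 at 48 h, and 0 and 4 for the difference between the times. The 14 came without DMA 24 h replicate 2 and the other 9 at 24 h without DMA 24 h replicate 1; all rest on 1 remaining DMA value, and Psma1 is the 1 member among them. The median of the subunit genes at 24 h ranged between -0.49 and 0.32 and the immune minus constitutive contrast between -0.78 and 0.39, with DMA 24 h replicate 3 left out at the upper end of both. Among named genes at 24 h that changed sign or call, the ranges were, for Psmb5, -0.0077 to 0.47, Psmb7 -1.44 to 0.53, Psmb9 -1.97 to 0.62, Psme1 -0.12 to 0.67, Psme2 -1.26 to 0.42, Psma1 -4.21 to 0.25, Psmf1 -0.58 to 0.69, Psma8 -0.055 to 0.32, Psmd9 -0.96 to 0.32, Psmg2 -2.17 to 0.71, Uba6 -0.38 to 0.32, Ngly1 -2.06 to 0.092, Ryr2 -0.081 to 0.86 and Tnnc1 -2.99 to 0.72. At 48 h they were, for Psmb6, -0.25 to 0.011, Psmb7 -0.26 to 0.086, Psmb8 -0.17 to 0.37, Psmb9 -0.23 to 0.14, Psma4 -0.34 to 0.36, Psmc2 -0.038 to 0.11, Psmd2 -1.54 to 0.44, Pomp -0.046 to 0.22, Psmg1 -0.15 to 0.034, Uba6 -0.0097 to 0.38, Uba3 -0.21 to 0.58, Ubqln4 -1.27 to 0.29, Ubqln2 -0.63 to 0.97, Tap2 -0.37 to 0.035, Irf1 -0.87 to 0.13, Nfe2l2 -0.79 to 0.30, Nfe2l1 -0.87 to 0.31, Myh6 -1.48 to 0.67 and Col1a2 -1.45 to 0.20.

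With limma's array weights, which gave DMA 24 h replicate 3 a weight of 0.0865 and the other arrays 0.526 to 2.19, the median of the subunit genes at 24 h was 0.28 and the immune minus constitutive contrast 0.26. At 24 h the sign turned for Psmb7 (0.53), Psmb9 (0.54), Psme2 (0.32), Psma1 (0.049), Psmf1 (-0.49), Psma8 (-0.074), Psmd9 (0.24), Psmg2 (0.67), Uba6 (-0.46), Ryr2 (-0.026) and Tnnc1 (0.67), and at 48 h for Psmb7 (0.034), Psmb9 (0.050), Psma4 (0.20), Nfe2l2 (0.084) and Myh6 (0.13). With DMA 24 h replicate 3 and DMSO 24 h replicate 2 both left out, a setting chosen after seeing the data, the median at 24 h was 0.19 and the contrast 0.35, and the sign turned for Psmb7 (0.34), Psmb9 (0.51), Psme2 (0.36), Psma1 (0.031), Psmf1 (-0.75), Psmd9 (0.23), Psmg2 (0.40), Uba6 (-0.29), Ngly1 (0.47), Ryr2 (-0.24) and Tnnc1 (0.73). Requiring a value on all 12 arrays removed Psmb8, and the contrast at 24 h became -1.30. Quantile normalization turned Psmc2 (-0.080) and Pomp (-0.0057) at 48 h. Subtracting the trend along probe numbers turned Uba6 (-0.085) at 24 h and Psmb8 (-0.053), Pomp (-0.046) and Uba3 (-0.011) at 48 h. The mean of a gene's probes turned Uba6 (-0.51) at 24 h and Uba6 (-0.11) and Uba3 (-0.34) at 48 h. For the signs that turned, the cause was not tested.

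With the replicate block, 0 probes and 0 members were called at 24 h and at 48 h, so the pairing changed no call. Over all settings that kept the other choices, 327 of 351 gene values at 24 h and 335 of 347 at 48 h kept their sign and their side of the threshold, and with arrays left out 427 of 444 and 412 of 444 did. Leaving out an array of the other time cannot change a difference, because the model has a term per group. The sign was thus fixed in advance for the settings that left out such arrays, and these shares overstate how steady the signs were.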

Other observations

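The pair of genes that match the symbol rule without being subunits behaved as dim probes. Psmc3ip had 6.70, 6.76 and 3.78 on DMA 24 h arrays, against 6.69, 6.42 and 6.49 on DMSO 24 h arrays, and differed by -0.79 (SE 0.720), or by 0.20 without DMA 24 h replicate 3. Psme3ip1 had 4.72, 5.21 and 4.51 on DMA 24 h arrays, against 5.06, 4.67 and 4.52 on DMSO 24 h arrays, and differed by 0.062 (SE 0.647), or by 0.21 without DMA 24 h replicate 3. At 48 h the difference of Psmc3ip was -0.29 and that of Psme3ip1 -0.73, or 0.083 without DMA 48 h replicate 3.

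Among the subunits, 5 genes had more than 1 probe, 11 probes in all. The dimmer Psmb4 probe gave -2.28 at 24 h and the brighter 0.23, and without DMA 24 h replicate 3 they gave -0.43 and 0.32, so these probes disagreed in sign both with and without that array. For Psmc4, Psmd12 and Psme1 the second probe had a mean of 4.88, 6.20 and 6.55, several log2 units below the first at 12.23, 12.97 and 13.23. For Psmd12 they differed by 0.24 at the dimmer and -1.04 at the brighter probe at 24 h, and by -0.27 and -0.18 without DMA 24 h replicate 3. For Psmd11 the dimmest probe, with a mean of 4.05, gave 1.34 at 48 h, against -0.17 at the brightest. A gene's value here is therefore the value of 1 probe.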
